A study of Rattus norvegicus with 12 samples.

Results

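The 50 genes described here belong to the integrated stress response and to the amino acid programme of the transcription factor ATF4, and were measured by messenger RNA sequencing in rat Schwann cells. They were taken by gene symbol from a table of 30957 genes, and all 50 were found. They comprise 9 amino acid transporter genes, 13 genes of amino acid synthesis and one-carbon metabolism, 12 cytosolic tRNA synthetase genes, and 16 genes of stress regulators and further ATF4 outputs. The cells were sampled in 4 groups of 3 libraries. They were cultured with macrophages induced by supernatant of MIA PaCa-2 cells (MiaTAM co-culture), with macrophages induced by supernatant of BxPC-3 cells (BxTAM co-culture), with monocyte-derived macrophages (MDM co-culture), or alone. MIA PaCa-2 and BxPC-3 are human pancreatic cancer lines. The titles name the cells alone Rsc96, taken here as the immortalised rat Schwann line RSC96, and head the MDM libraries PBMC. The descriptions and count columns of the same cells alone read HSC96, so the name of the line is not settled by the labels. No genotype or drug is given for any group, and the treatment label reads untreated both for MDM co-culture and for cells alone. The sources used here do not give medium, culture time or the macrophages' species, so effects of handling cannot be told apart from those of co-culture.

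Cells answer amino acid shortage, unfolded protein in the endoplasmic reticulum and some other stresses by phosphorylating the translation initiation factor eIF2. General translation then slows, while the Atf4 messenger is translated more, so that the level of this messenger is not a measure of the protein. ATF4 pairs with C/EBP proteins and other factors on C/EBP-ATF response elements and raises genes that import amino acids, build serine, glycine, asparagine and proline, and charge tRNAs. Under lasting stress it also raises regulators such as Ddit3 (CHOP) and Trib3.

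The core letters of the C/EBP-ATF response element, TGATGNAA on either strand (TTNCATCA on the other), were searched in RefSeq promoters of the rat assembly GRCr8, each 250 bases before to 50 bases after the start site. A promoter was matched for 44 of the 50 members, 11 of them through a RefSeq synonym. The letters occurred in 13 of these 44 (29.5%) and in 3.98% of all 33469 promoters in the table. By role they occurred in 7 of 11 member synthetases, 2 of 7 transporters, 1 of 11 synthesis genes and 3 of 15 regulators, but in 0 of 16 mitochondrial synthetase genes. They also occurred in 0 of 9 other cytosolic synthetase and complex genes, of which Aimp1, Aimp2 and Eef1e1 encode complex proteins and not synthetases. The following stretches are shown since they carry these letters (in capitals) before the start site of members from all 4 role groups. Each reads in the direction of transcription of its gene.
Aars1, chr19:55908344-55908403, plus strand: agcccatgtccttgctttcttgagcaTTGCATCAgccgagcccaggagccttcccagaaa
Iars1, chr17:15193653-15193712, minus strand: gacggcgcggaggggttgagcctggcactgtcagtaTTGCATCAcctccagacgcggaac
Mars1, chr7:65023754-65023813, minus strand: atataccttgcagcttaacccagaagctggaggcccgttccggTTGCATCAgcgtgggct
Nars1, chr18:60275783-60275842, minus strand: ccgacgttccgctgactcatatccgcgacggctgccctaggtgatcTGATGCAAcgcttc
Tars1, chr2:62114803-62114862, minus strand: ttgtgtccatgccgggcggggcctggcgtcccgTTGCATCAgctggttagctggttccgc
Slc7a1, chr12:11664428-11664487, plus strand: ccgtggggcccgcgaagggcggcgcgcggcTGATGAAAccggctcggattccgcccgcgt
Slc1a4, chr14:98761753-98761812, minus strand: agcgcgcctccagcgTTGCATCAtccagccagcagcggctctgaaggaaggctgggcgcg
Pycr1, chr10:106420910-106420969, minus strand: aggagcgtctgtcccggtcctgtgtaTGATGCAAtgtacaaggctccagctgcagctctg
Chac1, chr3:126795938-126795997, plus strand: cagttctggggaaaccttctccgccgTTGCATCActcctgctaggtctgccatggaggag
Trib3, chr3:161275534-161275593, minus strand: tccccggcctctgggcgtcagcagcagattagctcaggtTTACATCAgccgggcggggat
The letters lay within 30 bases before the start in Iars1, Mars1, Nars1, Tars1, Slc7a1 and Trib3. They lay after it in Cars1 and Yars1, and Aars1 held a further match after it. Nupr1 also held them. The endoplasmic reticulum stress element (ERSE), searched on both strands, was found in 0 of the 44 member promoters, in 8 of 15 promoters of chaperone and quality control genes of that compartment, and in 0.0657% of all promoters. A match describes the letters only and is not evidence of binding.

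Library totals ran from 16555215 to 21506669 counts. Levels are library-scaled counts (CPM, after TMM), given for replicates 1, 2 and 3 in turn or as mean ± SD of 3 libraries. Each change is a log2 fold change with its standard error, from 1 edgeR quasi-likelihood fit over all 12 libraries, and a gene was called at a Benjamini-Hochberg adjusted p under 0.05 over all 12360 genes tested. Whether the libraries within a group are separate cultures is not stated, so the p-values rest on a spread that may be technical. With bulk RNA, fewer cells of a type and less RNA per cell cannot be told apart. From the list of Schwann markers, Vim, Ncam1, Pmp22, Dhh and Erbb3 were detected in all 12 libraries, but 5 of the 14 genes found stayed under 1 CPM in every group. The lineage factor gene Sox10 had 1 count in 12 libraries, and Mbp and Cdh19 were at or near 0. Of 25 macrophage marker genes, 19 stayed under 1 CPM in every group and Tyrobp, C1qa and Marco had 0 counts throughout, with 3 counts of Ptprc and 2 of Adgre1 over all libraries. The summed level of the list was 66.8 to 70.8 CPM in MiaTAM, 60.2 to 62.1 CPM in BxTAM and 63.0 to 69.2 CPM in MDM co-culture, against 28.2 to 31.4 CPM in cells alone, with 6 of its 7 tested genes called higher in each co-culture. Summed immediate early genes, which respond to handling among other things, were at 1466 to 1517 CPM in MiaTAM, 1269 to 1372 CPM in BxTAM and 1582 to 1638 CPM in MDM co-culture, against 1103 to 1144 CPM in cells alone. The mitochondrial chromosome took 6.15% to 6.95% of counts in MiaTAM, 5.86% to 5.94% in BxTAM and 5.52% to 5.92% in MDM co-culture, against 5.03% to 5.54% in cells alone, and each MiaTAM library was above the other 9. The part of these 3 measures in the changes of the members was not tested.

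Of the 50 members, 46 passed the filter on low counts and were tested. Aldh18a1 and Nupr1 had 0 counts in all 12 libraries, Cbs had 1 count and Aldh1l2 had 3. Most tested members were lower in every co-culture than in cells alone. In MiaTAM co-culture 5 members were called higher and 36 lower than in cells alone, where 31.4% of all tested genes were called higher and 33.7% lower. In BxTAM co-culture 7 were called higher and 34 lower than in cells alone, against 30.0% and 30.9% of all tested genes. In MDM co-culture the counts were 5 and 36, against 32.0% and 33.1%. The share of members called lower thus stood above the share of all genes in each comparison, and the share called higher below it. The median member changed by -0.51 in MiaTAM, -0.47 in BxTAM and -0.72 in MDM co-culture, while the median tested gene changed by -0.01, 0.00 and -0.01. These comparisons share the libraries of cells alone. In 32 of the 46 tested members (69.6%) each library of cells alone was above all 9 co-culture libraries, a pattern shown by 24.1% of all tested genes.

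**Figure D1:**
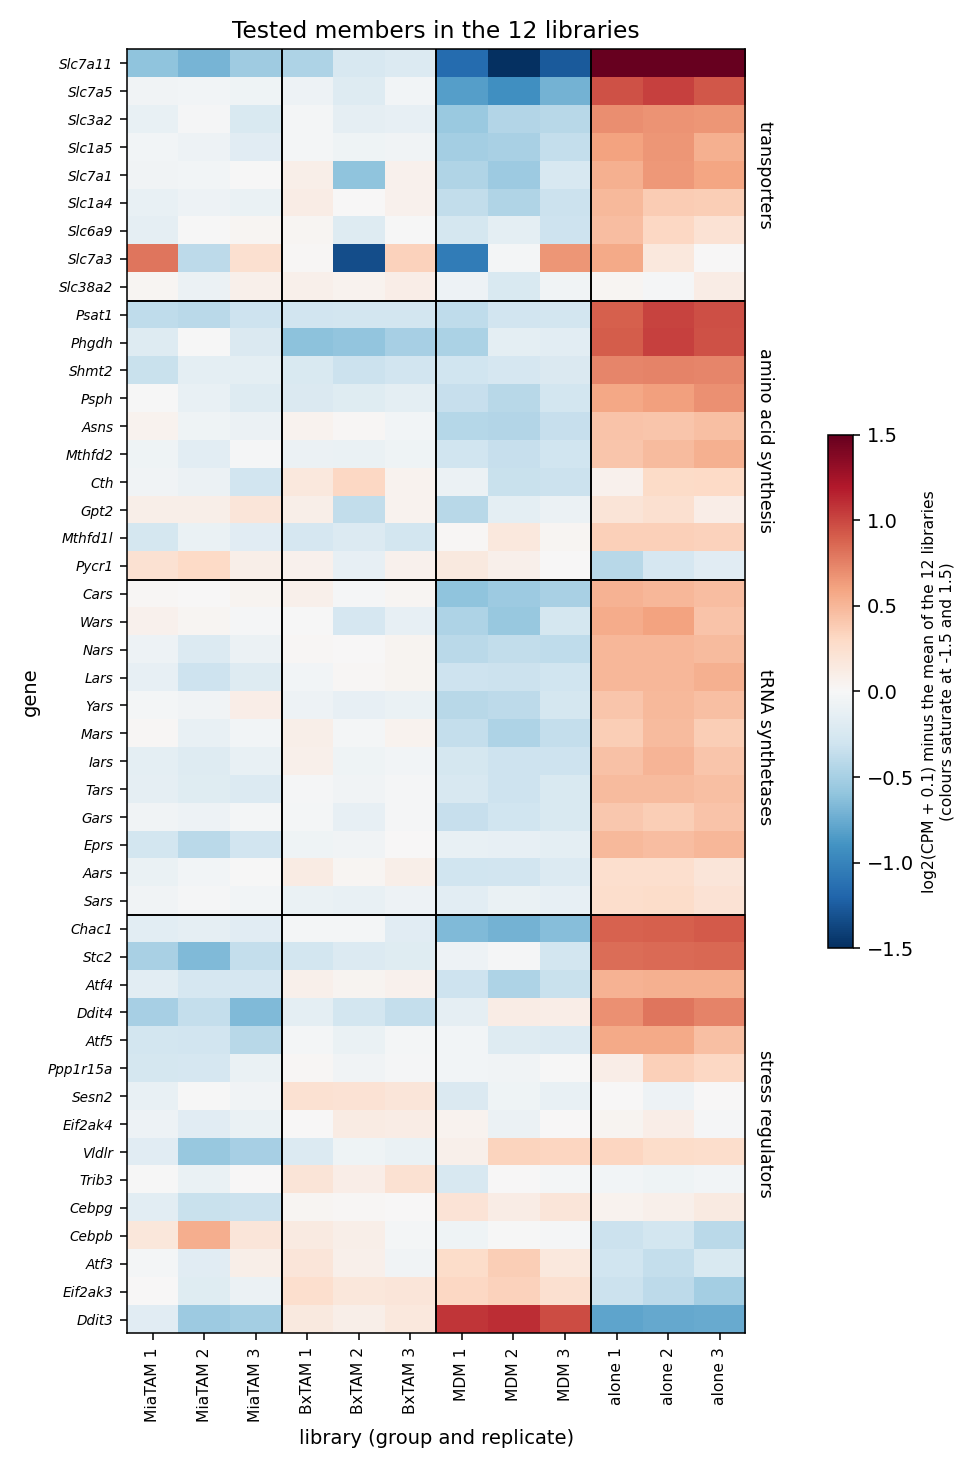
Heat map of the 46 tested members (rows, by role) in the 12 libraries (columns), as log2(CPM + 0.1) minus the mean of the 12 libraries. In cells alone (right) nearly all transporter, synthesis and synthetase rows are above their mean, while the last rows, Cebpb, Atf3, Eif2ak3 and Ddit3, are below it.

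The co-cultures also differed among themselves. Of the 46 tested members, 23 were called higher and 10 lower in MiaTAM than in MDM co-culture, against 19.8% and 21.1% of all tested genes. In BxTAM co-culture 23 were called higher and 6 lower than in MDM co-culture, against 17.4% and 17.3%. The median member changed by 0.14 in MiaTAM and 0.21 in BxTAM, and the median tested gene by -0.01 and 0.00. In 19 members (41.3%) the 4 groups stood in the same order without overlap of libraries, with MDM co-culture lowest, both TAM co-cultures in between and cells alone highest, as in 4.17% of all tested genes. Those 19 were 9 of the 12 synthetases, 5 of the 9 transporters, 3 of the 10 tested synthesis genes (Asns, Mthfd2 and Psph) and 2 of the 15 tested regulators (Atf4 and Chac1). Between the TAM co-cultures, 2 members were called higher and 19 lower in MiaTAM than in BxTAM, against 11.0% and 13.3% of all tested genes. That number of lower calls was 12 without replicate 1 of BxTAM, and that of higher calls was 1 without replicate 2 of cells alone, any replicate of MDM, any replicate of BxTAM or replicate 2 of MiaTAM.

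**Figure D2:**
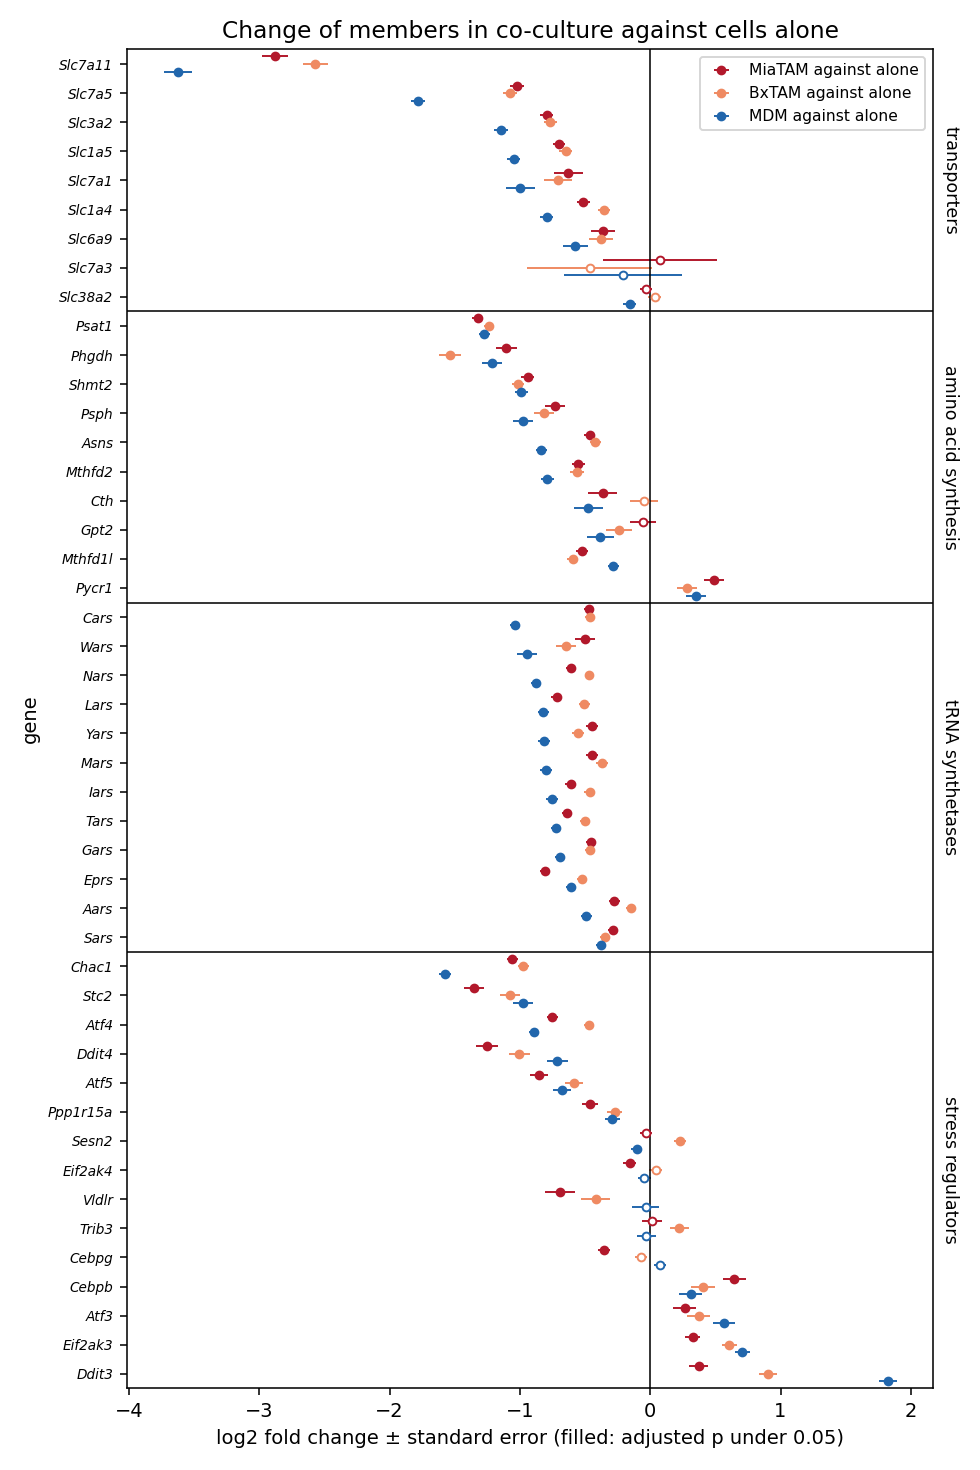
Log2 fold changes ± standard error (horizontal axis) of each tested member (rows, by role) in MiaTAM, BxTAM and MDM co-culture against cells alone, with filled points for adjusted p under 0.05. All 12 synthetases lie left of 0 in each comparison, and the points for MDM co-culture lie farthest left for most of them. Ddit3 lies farthest right in MDM co-culture, at 1.82.

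Most amino acid transporters fell in co-culture and stood higher in TAM than in MDM co-culture. Of 9 tested, 7 were called lower in MiaTAM, 7 in BxTAM and 8 in MDM co-culture than in cells alone, with none called higher and medians of -0.63, -0.65 and -1.0. The share called lower was 77.8%, 77.8% and 88.9%, beside 33.7%, 30.9% and 33.1% of all tested genes. Against MDM co-culture 7 (77.8%) were called higher in MiaTAM and 6 (66.7%) in BxTAM, with none called lower. Among all tested genes 19.8% and 17.4% were called higher. Slc7a11 (chr2:139453774-139528162 in Rnor_6.0), the cystine-glutamate antiporter that supplies cysteine for glutathione, had 3.598, 3.37 and 3.79 CPM in MiaTAM, 3.97, 4.66 and 4.78 CPM in BxTAM and 2.42, 1.76 and 2.24 CPM in MDM co-culture, against 27.5, 25.6 and 26.6 CPM in cells alone. The 4 groups did not overlap, and every co-culture library was far below those of cells alone. Its change against cells alone was -2.88 ± 0.10 in MiaTAM, -2.57 ± 0.10 in BxTAM and -3.63 ± 0.11 in MDM co-culture, the largest of any member in each comparison. Against MDM co-culture it changed by 0.74 ± 0.15 in MiaTAM and 1.05 ± 0.14 in BxTAM, both called.

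Slc7a5, the large neutral amino acid exchanger that carries leucine, had 58.6, 59.0 and 58.2 CPM in MiaTAM, 57.4, 52.8 and 58.9 CPM in BxTAM and 34.2, 32.0 and 37.2 CPM in MDM co-culture, against 118, 124 and 116 CPM in cells alone. MiaTAM and BxTAM overlapped and stood between MDM co-culture and cells alone. The change against cells alone was -1.02 ± 0.05 in MiaTAM, -1.08 ± 0.05 in BxTAM and -1.78 ± 0.06 in MDM co-culture, and against MDM co-culture 0.76 ± 0.06 in MiaTAM and 0.71 ± 0.06 in BxTAM. Slc3a2, the shared heavy chain of the Slc7a5 and Slc7a11 transporters, changed by -0.80 ± 0.05 in MiaTAM, -0.77 ± 0.05 in BxTAM and -1.15 ± 0.05 in MDM co-culture against cells alone. Slc1a5, which exchanges glutamine and other neutral amino acids, changed by -0.70 ± 0.05 in MiaTAM, -0.65 ± 0.05 in BxTAM and -1.05 ± 0.05 in MDM co-culture. Both were higher in either TAM than in MDM co-culture, by 0.35 to 0.40 on the log2 scale.

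Slc1a4, an alanine, serine and cysteine transporter, had 55.2, 56.9 and 55.6 CPM in MiaTAM, 64.5, 59.9 and 62.7 CPM in BxTAM and 46.3, 43.8 and 47.7 CPM in MDM co-culture, against 84.1, 78.1 and 77.2 CPM in cells alone. Its groups did not overlap, and it was called lower in MiaTAM than in BxTAM co-culture (-0.16 ± 0.05, edgeR, adjusted p = 0.0275), though not without replicate 1 or 3 of either TAM group (edgeR, adjusted p = 0.0618 to 0.107). Slc7a1, the main carrier of cationic amino acids, had 66.3, 66.4 and 68.4 CPM in MiaTAM, 73.1, 45.2 and 71.5 CPM in BxTAM and 49.98, 46.8 and 58.1 CPM in MDM co-culture, against 99.6, 107 and 104 CPM in cells alone. Replicate 2 of BxTAM was well below the other BxTAM libraries, near the level of MDM co-culture. The gene was called higher in MiaTAM than in MDM co-culture (0.37 ± 0.11), but in BxTAM co-culture it was not (0.29 ± 0.12, edgeR, adjusted p = 0.0559). Without that library the BxTAM change was 0.48 (edgeR, adjusted p = 3.18e-05), and without replicate 3 of MDM it was 0.39 (edgeR, adjusted p = 0.0250). Without replicate 2 of MDM the change in MiaTAM was 0.31 (edgeR, adjusted p = 0.0704).

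The glycine transporter gene Slc6a9 changed by -0.37 ± 0.09 in MiaTAM, -0.38 ± 0.09 in BxTAM and -0.57 ± 0.09 in MDM co-culture against cells alone, and was not called between co-cultures. Slc38a2, a sodium-coupled importer of small neutral amino acids and among the best known targets of amino acid shortage, averaged 350.3 ± 19.7 CPM in MiaTAM, 367 ± 5.09 CPM in BxTAM and 321 ± 21.0 CPM in MDM co-culture, against 358 ± 16.6 CPM in cells alone. Its one call against cells alone was a small fall in MDM co-culture (-0.16 ± 0.05), which was lost without replicate 3 of cells alone (-0.12, edgeR, adjusted p = 0.0602) or replicate 2 of MDM (-0.11, edgeR, adjusted p = 0.0718). Slc38a2 was called higher in both TAM co-cultures than in MDM co-culture. The call in MiaTAM was lost in 8 of 19 alternative analyses (edgeR and limma, adjusted p = 0.0503 to 0.266). Slc7a3, another cationic amino acid carrier, was near the detection limit at 0.17 to 1.10 CPM and was called in no comparison. Of 14 tested amino acid transporter genes that are not members, 5 were called higher and 2 lower in MiaTAM, 3 and 2 in BxTAM, and 3 and 2 in MDM co-culture than in cells alone. The share called higher was 35.7%, 21.4% and 21.4%, beside 31.4%, 30.0% and 32.0% of all tested genes. The share called lower was 14.3% in each, beside 33.7%, 30.9% and 33.1%. The 2 lower ones were the glutamate transporter gene Slc1a1 (-0.36 ± 0.05 in MiaTAM, -0.31 ± 0.05 in BxTAM and -0.81 ± 0.05 in MDM co-culture) and Slc7a6 (-0.16 ± 0.06 in MiaTAM, -0.14 ± 0.06 in BxTAM and -0.53 ± 0.06 in MDM co-culture), and both showed the order of MDM co-culture lowest and cells alone highest. Slc43a2, a neutral amino acid carrier, was higher in all 3 co-cultures, by 1.68 ± 0.19 in MiaTAM, 1.29 ± 0.20 in BxTAM and 0.87 ± 0.22 in MDM co-culture.

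**Figure D3:**
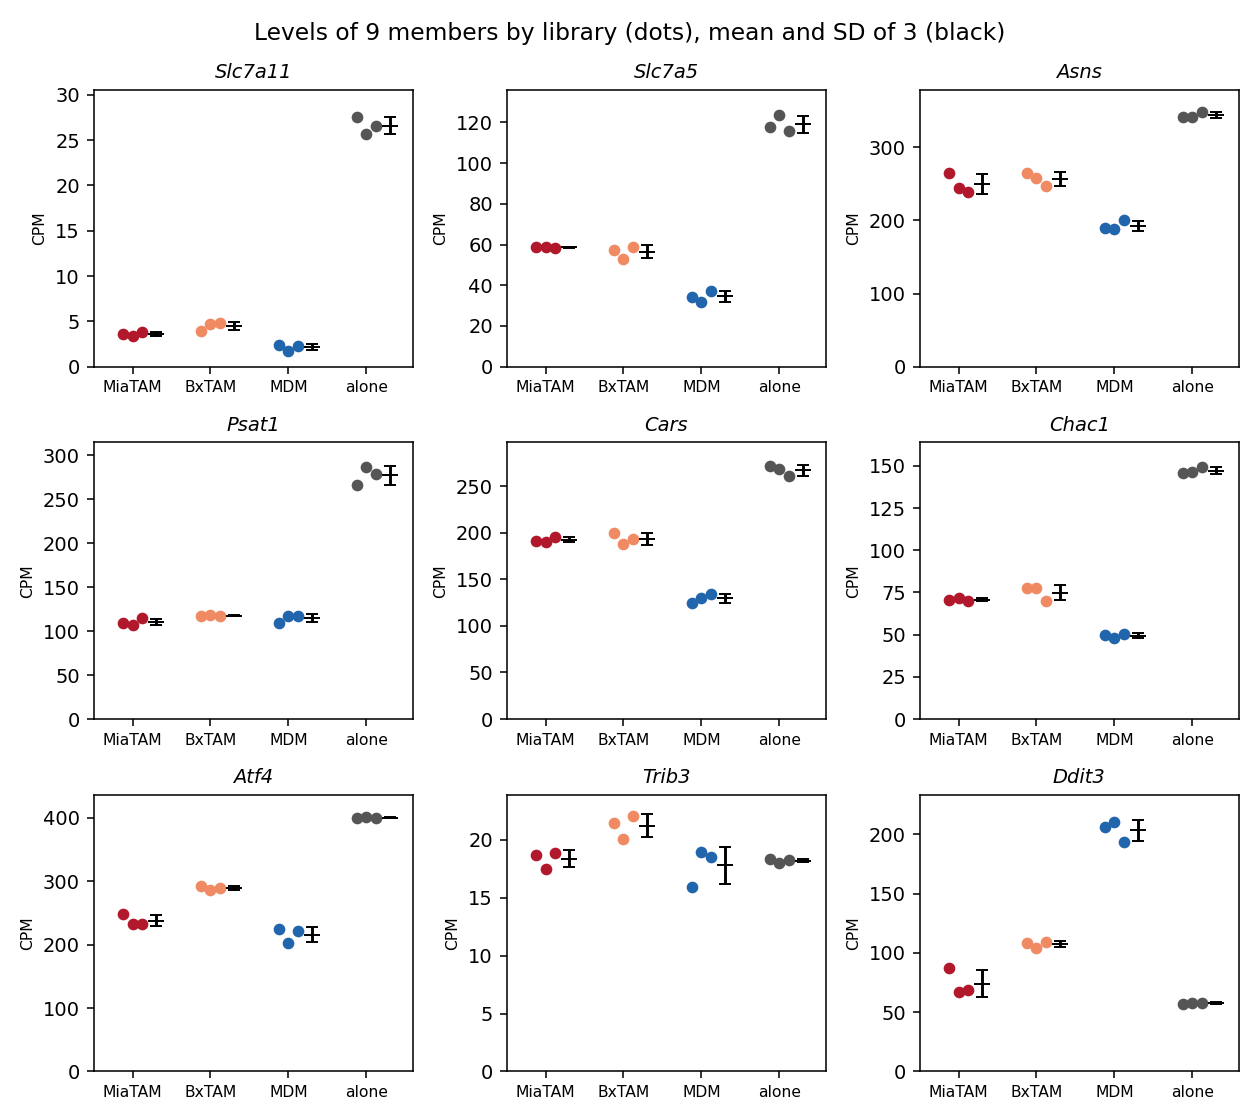
CPM (vertical axis, from 0) of 9 members in each library (coloured points) with mean and SD of 3 libraries (black bars), for MiaTAM, BxTAM, MDM co-culture and cells alone. Slc7a11, Slc7a5, Asns, Cars, Chac1 and Atf4 share the order of MDM co-culture lowest and cells alone highest. Psat1 is level among co-cultures, Trib3 is highest in BxTAM co-culture, and Ddit3 is highest in MDM co-culture.

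Most synthesis genes fell in co-culture and Pycr1 rose. Of 10 tested, 8 were called lower in MiaTAM, 8 in BxTAM and 9 in MDM co-culture than in cells alone, with medians of -0.54, -0.58 and -0.81 and 1 called higher in each. The share called lower was 80%, 80% and 90%, beside 33.7%, 30.9% and 33.1% of all tested genes. Against MDM co-culture 4 were called higher and 1 lower in MiaTAM, and 3 and 2 in BxTAM. In MiaTAM these were 40% and 10%, beside 19.8% and 21.1% of all tested genes. In BxTAM they were 30% and 20%, beside 17.4% and 17.3%. Asns, asparagine synthetase and a widely used reporter of ATF4 activity, had 265, 245 and 239 CPM in MiaTAM, 265, 257 and 247 CPM in BxTAM and 189, 188 and 201 CPM in MDM co-culture, against 342, 341 and 349 CPM in cells alone. MiaTAM and BxTAM libraries overlapped, above MDM co-culture and below cells alone. Its change against cells alone was -0.46 ± 0.04 in MiaTAM, -0.42 ± 0.04 in BxTAM and -0.84 ± 0.04 in MDM co-culture, and against MDM co-culture 0.37 ± 0.04 in MiaTAM and 0.41 ± 0.04 in BxTAM.

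Phgdh and Psat1, unlike Asns, were not called higher in either TAM than in MDM co-culture. Phgdh was called lower in BxTAM than in MDM co-culture (-0.32). Phgdh, the first enzyme of serine synthesis from glycolytic intermediates, had 19.3, 22.2 and 19.1 CPM in MiaTAM, 14.4, 14.7 and 15.7 CPM in BxTAM and 16.0, 20.1 and 19.8 CPM in MDM co-culture, against 41.8, 45.2 and 43.1 CPM in cells alone. Its co-culture libraries lay below every library of cells alone, and those of BxTAM were the lowest. Against cells alone it changed by -1.11 ± 0.08 in MiaTAM, -1.54 ± 0.08 in BxTAM and -1.22 ± 0.08 in MDM co-culture, and it was called higher in MiaTAM than in BxTAM co-culture (0.43 ± 0.09, edgeR, adjusted p = 0.00168). Psat1, the next enzyme, had 109.6, 108 and 115 CPM in MiaTAM, 117, 118 and 117 CPM in BxTAM and 109.6, 117 and 117 CPM in MDM co-culture, against 266, 287 and 279 CPM in cells alone. The 3 co-cultures lay close together and were all below cells alone, by -1.33 ± 0.04 in MiaTAM, -1.24 ± 0.04 in BxTAM and -1.27 ± 0.04 in MDM co-culture, with no call between co-cultures. Psph, which releases free serine in the last step, changed by -0.73 ± 0.08 in MiaTAM, -0.81 ± 0.08 in BxTAM and -0.98 ± 0.08 in MDM co-culture against cells alone.

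In the mitochondrial one-carbon pathway, which uses serine to make formate, all 3 tested enzymes fell against cells alone, but their order among the co-cultures was not the same. Shmt2, which splits serine into glycine and a one-carbon unit, had 76.1, 86.7 and 86.3 CPM in MiaTAM, 81.8, 76.5 and 78.4 CPM in BxTAM and 77.9, 80.5 and 82.5 CPM in MDM co-culture, against 159, 160.5 and 159 CPM in cells alone. Co-cultures overlapped one another and stood apart from cells alone, with changes of -0.94 ± 0.05 in MiaTAM, -1.01 ± 0.05 in BxTAM and -0.99 ± 0.05 in MDM co-culture. Mthfd2, which oxidises the one-carbon unit, had 46.7, 43.9 and 48.5 CPM in MiaTAM, 45.9, 45.7 and 46.6 CPM in BxTAM and 39.8, 38.5 and 39.6 CPM in MDM co-culture, against 65.3, 67.8 and 70.8 CPM in cells alone. The groups were ordered with MDM co-culture lowest, and MiaTAM and BxTAM changed by 0.24 ± 0.05 in MiaTAM and 0.23 ± 0.05 in BxTAM against it. Mthfd1l, which releases formate, averaged 160.2 ± 9.11 CPM in MiaTAM, 153 ± 4.13 CPM in BxTAM and 189.6 ± 10.6 CPM in MDM co-culture, against 231 ± 0.493 CPM in cells alone, and was called lower in both TAM co-cultures than in MDM co-culture (-0.24 ± 0.05 in MiaTAM and -0.31 ± 0.05 in BxTAM). Aldh1l2, the mitochondrial folate dehydrogenase, was counted 2 times in BxTAM libraries and 1 time in cells alone, with 0 counts in MiaTAM and MDM co-culture.

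Pycr1, whose enzyme carries out the last step of proline synthesis in mitochondria, was the one synthesis member that rose. It averaged 34.8 ± 2.51 CPM in MiaTAM, 30.2 ± 2.29 CPM in BxTAM and 31.7 ± 1.49 CPM in MDM co-culture, against 24.8 ± 2.09 CPM in cells alone. All co-culture libraries were above those of cells alone, with changes of 0.49 ± 0.08 in MiaTAM, 0.28 ± 0.08 in BxTAM and 0.35 ± 0.08 in MDM co-culture. Aldh18a1, which feeds the same route from glutamate, had 0 counts in all 12 libraries, so its level was not measured. Cth, which makes cysteine from cystathionine, had 7.20, 7.05 and 6.12 CPM in MiaTAM, 8.37, 9.31 and 7.74 CPM in BxTAM and 7.03, 5.90 and 5.97 CPM in MDM co-culture, against 7.84, 9.13 and 9.21 CPM in cells alone. BxTAM libraries overlapped those of cells alone, and MiaTAM overlapped MDM co-culture. It was called lower against cells alone in MiaTAM (-0.36 ± 0.11) and in MDM co-culture (-0.48 ± 0.11), but in BxTAM co-culture the change was -0.05 ± 0.11 (edgeR, adjusted p = 0.734). Cbs, the enzyme before Cth, had 1 count, in an MDM library.

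Gpt2, mitochondrial alanine aminotransferase, had 15.7, 15.7 and 16.7 CPM in MiaTAM, 15.7, 11.4 and 15.3 CPM in BxTAM and 11.1, 13.3 and 13.9 CPM in MDM co-culture, against 16.8, 17.4 and 15.9 CPM in cells alone. MDM co-culture was below cells alone without overlap (-0.38 ± 0.10), and MiaTAM overlapped cells alone. In BxTAM co-culture the change was -0.24 ± 0.10 (edgeR, adjusted p = 0.0499), a call lost in 14 of 19 alternative analyses, among them that without the low replicate 2 of BxTAM (-0.11, edgeR, adjusted p = 0.334). Among 24 tested one-carbon and amino acid enzyme genes that are not members, 10 were called lower and 5 higher in MiaTAM, 11 and 6 in BxTAM, and 13 and 4 in MDM co-culture than in cells alone. The share called lower was 41.7%, 45.8% and 54.2%, beside 33.7%, 30.9% and 33.1% of all tested genes. The share called higher was 20.8%, 25% and 16.7%, beside 31.4%, 30.0% and 32.0%. Shmt1, the cytosolic counterpart of Shmt2, fell the most, with changes of -1.91 ± 0.07 in MiaTAM, -2.30 ± 0.08 in BxTAM and -2.18 ± 0.08 in MDM co-culture, and the cytosolic folate enzyme gene Mthfd1 changed by -0.99 ± 0.05 in MiaTAM, -1.15 ± 0.05 in BxTAM and -1.36 ± 0.05 in MDM co-culture.

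All 12 member synthetase genes, whose enzymes attach amino acids to their tRNAs, were called lower in every co-culture than in cells alone. Among all tested genes the share called lower was 33.7% in MiaTAM, 30.9% in BxTAM and 33.1% in MDM co-culture. Their medians were -0.49 in MiaTAM, -0.47 in BxTAM and -0.78 in MDM co-culture. Cars, the cysteine enzyme, had 192, 191 and 195 CPM in MiaTAM, 199.6, 188 and 193 CPM in BxTAM and 125, 129 and 135 CPM in MDM co-culture, against 272, 268 and 261 CPM in cells alone. It changed most among them in MDM co-culture, with changes of -0.47 ± 0.04 in MiaTAM, -0.46 ± 0.04 in BxTAM and -1.04 ± 0.04 in MDM co-culture against cells alone and of 0.57 ± 0.04 in MiaTAM and 0.58 ± 0.04 in BxTAM against MDM co-culture. The TAM groups overlapped and stood clear of both MDM co-culture and cells alone.

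Wars, the tryptophan enzyme, had 37.7, 36.6 and 35.4 CPM in MiaTAM, 35.9, 30.2 and 33.1 CPM in BxTAM and 26.1, 24.2 and 30.0 CPM in MDM co-culture, against 52.8, 54.5 and 48.2 CPM in cells alone. Yars, the tyrosine enzyme, had 224, 221 and 245 CPM in MiaTAM, 217, 211 and 214 CPM in BxTAM and 171, 174 and 191 CPM in MDM co-culture, against 307, 320.3 and 315 CPM in cells alone. In both genes MDM co-culture was lowest and cells alone highest without overlap. Against MDM co-culture Wars changed by 0.45 ± 0.08 in MiaTAM and 0.30 ± 0.08 in BxTAM, and Yars by 0.37 ± 0.05 in MiaTAM and 0.26 ± 0.05 in BxTAM. Mars, the methionine enzyme, had 163, 149 and 157 CPM in MiaTAM, 171, 158 and 167 CPM in BxTAM and 125, 117 and 125 CPM in MDM co-culture, against 209, 223 and 207 CPM in cells alone, in the same order, and changed by 0.35 ± 0.05 in MiaTAM and 0.43 ± 0.05 in BxTAM against MDM co-culture. The annotated Mars and Ddit3 genes overlap at their ends on chromosome 7 (chr7:70585013-70602310 and chr7:70580198-70585084 in Rnor_6.0), and since the strand setting of the counts is not given, reads from the shared stretch are uncertain.

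Lars, the leucine enzyme, had 253, 221 and 241 CPM in MiaTAM, 268, 277 and 283 CPM in BxTAM and 222, 219.6 and 223 CPM in MDM co-culture, against 388, 389 and 398 CPM in cells alone. Eprs, the joint glutamate and proline enzyme, had 411, 379 and 410.2 CPM in MiaTAM, 476, 481 and 503 CPM in BxTAM and 464, 459.5 and 451 CPM in MDM co-culture, against 700.3, 690.3 and 706 CPM in cells alone. These 2 genes were lower in MiaTAM than in BxTAM co-culture without overlap, by -0.21 ± 0.04 (edgeR, adjusted p = 0.00162) and -0.28 ± 0.04 (edgeR, adjusted p = 5.64e-05). Eprs was the one synthetase called lower in MiaTAM than in MDM co-culture (-0.20 ± 0.04). The other 6, Aars, Gars, Iars, Nars, Sars and Tars, changed by -0.28 to -0.64 in MiaTAM, -0.15 to -0.50 in BxTAM and -0.38 to -0.87 in MDM co-culture against cells alone.

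Against MDM co-culture 9 of the 12 were called higher and 1 lower in MiaTAM, and 10 higher and 0 lower in BxTAM, with medians of 0.22 and 0.29. Among all tested genes 19.8% were called higher and 21.1% lower in MiaTAM, and 17.4% and 17.3% in BxTAM. The call of Sars in MiaTAM against MDM co-culture was lost in 9 of 19 alternative analyses (edgeR, adjusted p = 0.0511 to 0.139). Among the 11 other cytosolic synthetase and complex genes tested, 5 (45.5%) were called higher and 1 lower in MiaTAM, and 4 (36.4%) and 1 in BxTAM than in MDM co-culture. Against cells alone 9 of those 11 were called lower in MiaTAM, 10 in BxTAM and 10 in MDM co-culture, among them Farsb, a subunit of the phenylalanine enzyme, at -0.88 ± 0.05 in MiaTAM, -0.87 ± 0.05 in BxTAM and -1.05 ± 0.05 in MDM co-culture. Of 16 mitochondrial synthetases 8 (50%) were called lower in each co-culture than in cells alone. Among all tested genes 33.7% were called lower in MiaTAM, 30.9% in BxTAM and 33.1% in MDM co-culture. No mitochondrial synthetase was called higher in a TAM than in MDM co-culture. The 7 members with the response element letters in their promoter had a median change of 0.34 (0.23 to 0.58) in BxTAM against MDM co-culture, and the 4 with a matched promoter but without the letters 0.19 (0.03 to 0.32). In MiaTAM these medians were 0.26 (0.09 to 0.57) and 0.10 (-0.20 to 0.45). Against cells alone the medians with and without the letters were -0.47 and -0.61 in MiaTAM. They were -0.47 and -0.51 in BxTAM, and -0.80 and -0.72 in MDM co-culture. With the letters the median fall was thus smaller in both TAM co-cultures and larger in MDM co-culture. The ranges overlapped in each comparison and the differences were not tested.

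**Figure D4:**
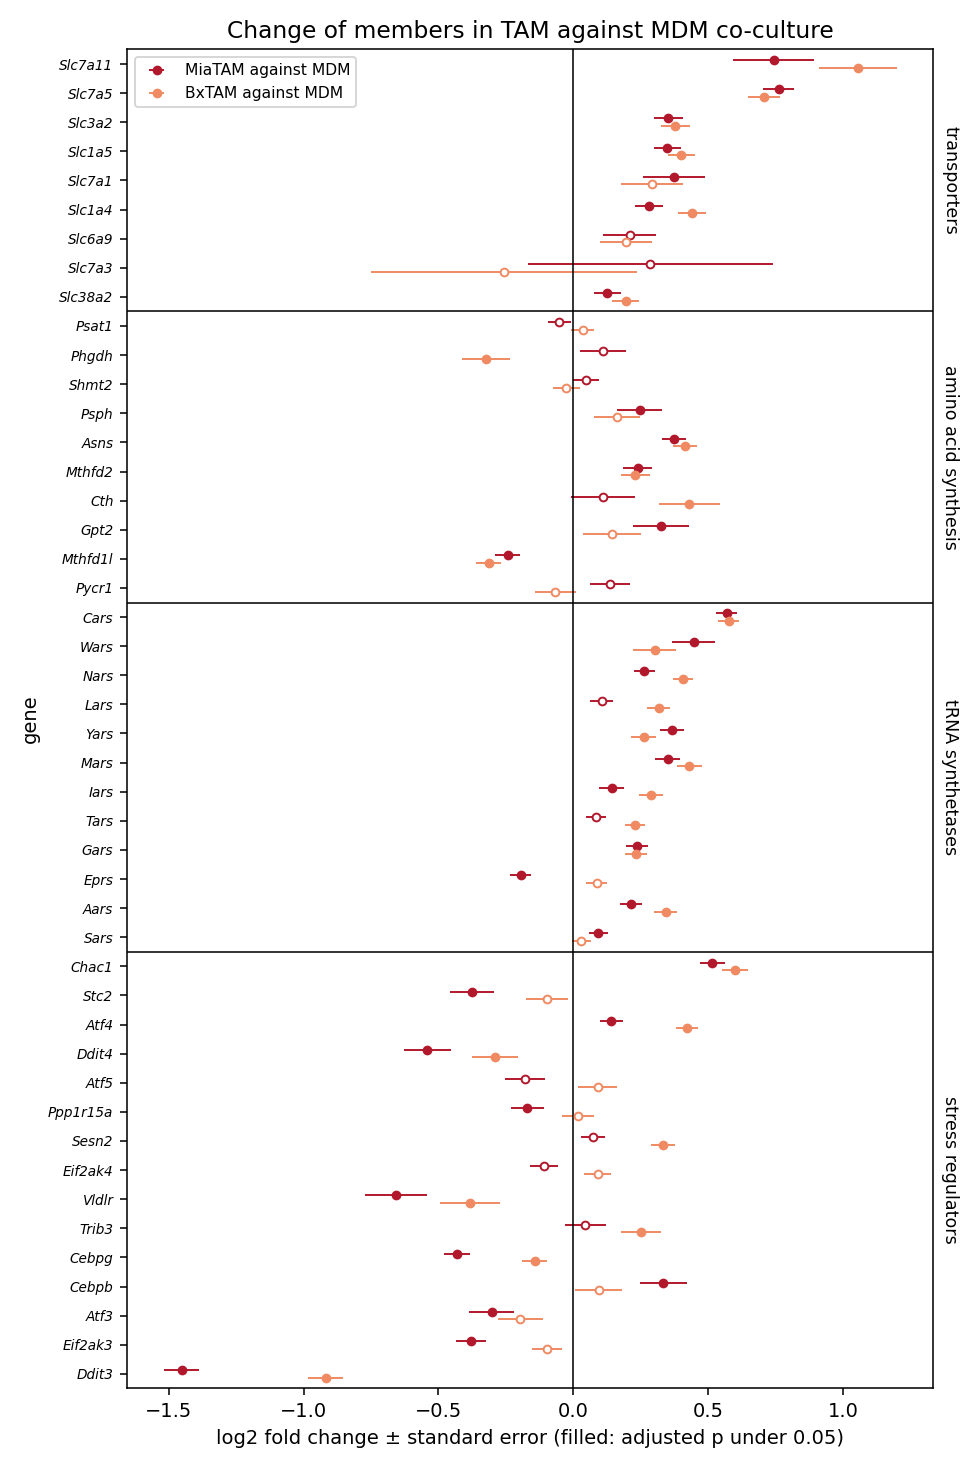
Log2 fold changes ± standard error (horizontal axis) of each tested member (rows, by role) in MiaTAM and BxTAM against MDM co-culture, with filled points for adjusted p under 0.05. Most transporters and synthetases lie right of 0. Ddit3 lies farthest left, at -1.45 in MiaTAM and -0.92 in BxTAM.

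Stress regulators were called in both directions. Of 15 tested, 4 were called higher and 9 lower in MiaTAM, 6 and 7 in BxTAM, and 4 and 7 in MDM co-culture than in cells alone, with medians of -0.36, -0.07 and -0.05. The share called higher was 26.7% in MiaTAM, 40% in BxTAM and 26.7% in MDM co-culture, beside 31.4%, 30.0% and 32.0% of all tested genes, and the share called lower 60%, 46.7% and 46.7%, beside 33.7%, 30.9% and 33.1%. Atf4 itself (chr7:121480723-121482781 in Rnor_6.0) had 249, 233 and 233 CPM in MiaTAM, 292, 286 and 289 CPM in BxTAM and 225, 202 and 221 CPM in MDM co-culture, against 399.6, 402 and 400.4 CPM in cells alone. The 4 groups did not overlap, with MDM co-culture lowest and cells alone highest. Its change was -0.75 ± 0.04 in MiaTAM, -0.47 ± 0.04 in BxTAM and -0.89 ± 0.04 in MDM co-culture against cells alone, and 0.14 ± 0.04 in MiaTAM and 0.42 ± 0.04 in BxTAM against MDM co-culture. The change in MiaTAM against MDM co-culture was not called without replicate 2 of MDM (0.10, edgeR, adjusted p = 0.0820) or replicate 1 of MiaTAM (0.11, edgeR, adjusted p = 0.0579). Per length Atf4 was the most abundant of the 50 in every group, at 169 ± 7.47 FPKM in MiaTAM, 205 ± 2.34 FPKM in BxTAM and 152 ± 9.93 FPKM in MDM co-culture, against 287 ± 2.07 FPKM in cells alone.

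Chac1, a glutathione-degrading enzyme and one of the most ATF4-responsive genes, had 70.5, 71.8 and 69.8 CPM in MiaTAM, 77.4, 77.4 and 70.1 CPM in BxTAM and 49.8, 48.0 and 50.6 CPM in MDM co-culture, against 145, 147 and 149.5 CPM in cells alone. It moved in the order of Atf4, by -1.06 ± 0.04 in MiaTAM, -0.97 ± 0.04 in BxTAM and -1.57 ± 0.05 in MDM co-culture against cells alone and by 0.51 ± 0.05 in MiaTAM and 0.60 ± 0.05 in BxTAM against MDM co-culture, with only the TAM groups overlapping. Atf5, a related factor that is also translated under stress, changed by -0.85 ± 0.07 in MiaTAM, -0.59 ± 0.07 in BxTAM and -0.68 ± 0.07 in MDM co-culture against cells alone. Ppp1r15a, which directs the phosphatase that restores eIF2, changed by -0.46 ± 0.06 in MiaTAM, -0.27 ± 0.06 in BxTAM and -0.29 ± 0.06 in MDM co-culture.

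Ddit3, the factor CHOP that is linked to cell death under lasting stress, had 86.8, 67.0 and 68.6 CPM in MiaTAM, 109, 104 and 109.5 CPM in BxTAM and 206, 211 and 193 CPM in MDM co-culture, against 56.7, 57.5 and 58.1 CPM in cells alone. MDM co-culture was highest and cells alone lowest, where Atf4 had the reverse, while MiaTAM was below BxTAM in both genes. No groups overlapped. Its change against cells alone was 0.37 ± 0.07 in MiaTAM, 0.90 ± 0.07 in BxTAM and 1.82 ± 0.07 in MDM co-culture, and against MDM co-culture -1.45 ± 0.07 in MiaTAM and -0.92 ± 0.06 in BxTAM. It was the one member above all other libraries in MDM co-culture, as were 8.83% of all tested genes. Per length it had rank 2 among the 50 members in MDM co-culture, at 128 ± 4.91 FPKM, and rank 20 in cells alone, at 36.7 ± 0.483 FPKM. Mars, which it overlaps, moved in the opposite direction in each co-culture against cells alone and in either TAM against MDM co-culture. Between the TAM co-cultures Ddit3 was called lower in MiaTAM and Mars was not called.

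Eif2ak3, the kinase PERK that senses unfolded protein in the endoplasmic reticulum, averaged 56.3 ± 3.65 CPM in MiaTAM, 68.5 ± 2.07 CPM in BxTAM and 73.4 ± 2.78 CPM in MDM co-culture, against 45.0 ± 2.88 CPM in cells alone. All co-culture libraries exceeded those of cells alone, with changes of 0.33 ± 0.06 in MiaTAM, 0.61 ± 0.06 in BxTAM and 0.71 ± 0.06 in MDM co-culture. Eif2ak4, the kinase GCN2 that senses uncharged tRNA, changed little, by -0.16 ± 0.05 in MiaTAM, 0.04 ± 0.05 in BxTAM and -0.05 ± 0.05 in MDM co-culture, and it overlaps Srp14 in the annotation. Atf3, a repressor induced by many stresses, had 16.5, 15.0 and 17.9 CPM in MiaTAM, 19.3, 17.8 and 16.3 CPM in BxTAM and 20.5, 21.9 and 18.9 CPM in MDM co-culture, against 13.7, 13.2 and 14.4 CPM in cells alone. Cells alone were lowest and the co-cultures overlapped in part. The changes were 0.26 ± 0.09 in MiaTAM, 0.37 ± 0.09 in BxTAM and 0.57 ± 0.09 in MDM co-culture, the first of which was not called without replicate 3 of MiaTAM (0.20, edgeR, adjusted p = 0.0786). Cebpb, a C/EBP factor active in inflammation, rose by 0.64 ± 0.09 in MiaTAM, 0.40 ± 0.09 in BxTAM and 0.31 ± 0.09 in MDM co-culture against cells alone, with replicate 2 of MiaTAM the highest library at 31.0 CPM.

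Trib3, a pseudokinase that feeds back on ATF4 and CHOP, had 18.7, 17.5 and 18.9 CPM in MiaTAM, 21.5, 20.1 and 22.1 CPM in BxTAM and 16.0, 19.0 and 18.5 CPM in MDM co-culture, against 18.4, 18.0 and 18.3 CPM in cells alone. BxTAM was above the other 9 libraries, and the other groups overlapped. It was called higher in BxTAM than in cells alone (0.22 ± 0.07) and in MDM co-culture (0.25 ± 0.07), and both calls were lost without replicate 3 of BxTAM (0.19, edgeR, adjusted p = 0.0567 and 0.23, edgeR, adjusted p = 0.0513). Without replicate 1 of MDM the change against MDM co-culture was 0.18 (edgeR, adjusted p = 0.0722). Sesn2, a leucine-binding inhibitor of mTORC1, had 126, 135 and 131 CPM in MiaTAM, 159, 157 and 153 CPM in BxTAM and 116, 130.0 and 125 CPM in MDM co-culture, against 136, 128 and 136 CPM in cells alone. BxTAM was again above all others, by 0.23 ± 0.04 against cells alone and 0.33 ± 0.04 against MDM co-culture, and MiaTAM was below BxTAM by -0.26 ± 0.04 (edgeR, adjusted p = 0.000359). A small fall of Sesn2 in MDM co-culture (-0.11 ± 0.04) was lost in 12 of 19 alternative analyses (edgeR and other tools, adjusted p = 0.0515 to 0.371).

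Ddit4, another mTORC1 inhibitor, had 14.4, 15.9 and 12.8 CPM in MiaTAM, 18.4, 16.9 and 16.0 CPM in BxTAM and 18.7, 22.1 and 21.9 CPM in MDM co-culture, against 32.8, 35.8 and 34.3 CPM in cells alone. Stc2, a secreted glycoprotein raised by PERK and ATF4, had 17.3, 15.3 and 18.9 CPM in MiaTAM, 20.1, 21.0 and 21.4 CPM in BxTAM and 23.1, 24.0 and 20.1 CPM in MDM co-culture, against 43.6, 43.7 and 44.4 CPM in cells alone. Both were lowest in MiaTAM and highest in cells alone, with changes of -1.26 ± 0.08 in MiaTAM, -1.0 ± 0.08 in BxTAM and -0.71 ± 0.08 in MDM co-culture for Ddit4 against cells alone and of -1.35 ± 0.08 in MiaTAM, -1.08 ± 0.07 in BxTAM and -0.98 ± 0.07 in MDM co-culture for Stc2. Vldlr, the very low density lipoprotein receptor, had 6.62, 5.0 and 5.26 CPM in MiaTAM, 6.44, 7.13 and 6.98 CPM in BxTAM and 7.90, 9.42 and 9.38 CPM in MDM co-culture, against 9.37, 9.08 and 8.99 CPM in cells alone. MDM co-culture overlapped cells alone, and both TAM groups were below it, by -0.66 ± 0.11 in MiaTAM and -0.38 ± 0.11 in BxTAM against MDM co-culture. Cebpg, a dimer partner of ATF4, had 77.1, 68.7 and 69.1 CPM in MiaTAM, 88.3, 87.6 and 86.6 CPM in BxTAM and 99.1, 92.9 and 97.7 CPM in MDM co-culture, against 89.3, 91.1 and 94.8 CPM in cells alone. MiaTAM was below all other libraries, by -0.36 ± 0.05 against cells alone and -0.29 ± 0.05 against BxTAM co-culture. Nupr1, a small stress-induced chromatin protein, had 0 counts.

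Between the TAM co-cultures most calls were among regulators and synthetases, and nearly all were lower in MiaTAM. Of 15 tested regulators, 1 was called higher and 11 lower in MiaTAM than in BxTAM, with a median of -0.26, against 1 and 1 of 10 synthesis genes, 0 and 1 of 9 transporters, and 0 and 6 of 12 synthetases. The share called lower was 73.3% of regulators and 50% of synthetases, but 10% of synthesis genes and 11.1% of transporters. Among all tested genes 11.0% were called higher and 13.3% lower. The largest change was that of Ddit3 (-0.53 ± 0.07, edgeR, adjusted p = 2.53e-05), and Atf4 was lower by -0.28 ± 0.04 (edgeR, adjusted p = 0.000117). Against MDM co-culture 8 regulators were called lower and 3 higher in MiaTAM, and 4 and 4 in BxTAM. In MiaTAM these were 53.3% and 20%, beside 21.1% and 19.8% of all tested genes, so the share called higher was near that of all genes. In BxTAM they were 26.7% each, beside 17.3% and 17.4%.

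Genes around the pathway were taken from lists of known members. One list held eIF2 and eIF2B subunits, eIF2 kinases and the phosphatase subunit gene Ppp1r15b. Of its 11 tested genes, 6 were called lower and 1 higher in MiaTAM and in BxTAM, and 4 and 0 in MDM co-culture than in cells alone. The share called lower was 54.5% in MiaTAM and in BxTAM, and 36.4% in MDM co-culture, beside 33.7%, 30.9% and 33.1% of all tested genes. In MDM co-culture the share called lower was thus near that of all genes. The share called higher was 9.09% in MiaTAM, 9.09% in BxTAM and 0% in MDM co-culture, beside 31.4%, 30.0% and 32.0%. Eif2b3 changed by -0.44 ± 0.05 in MiaTAM, -0.42 ± 0.05 in BxTAM and -0.69 ± 0.05 in MDM co-culture and Eif2s2 by -0.49 ± 0.06 in MiaTAM, -0.31 ± 0.06 in BxTAM and -0.59 ± 0.06 in MDM co-culture. Of 17 further genes reported as ATF4 outputs, 10 were called higher and 4 lower in MiaTAM, 8 and 3 in BxTAM, and 11 and 4 in MDM co-culture. The share called higher was 58.8%, 47.1% and 64.7%, beside 31.4%, 30.0% and 32.0% of all tested genes. The share called lower was 23.5%, 17.6% and 23.5%, beside 33.7%, 30.9% and 33.1%. This list thus leaned the other way from the members as a whole. Gdf15, a secreted stress cytokine, rose by 1.57 ± 0.14 in MiaTAM, 1.62 ± 0.14 in BxTAM and 1.40 ± 0.14 in MDM co-culture against cells alone. Cebpd, a C/EBP factor, fell in MDM co-culture (-1.31 ± 0.13) and was higher in either TAM than in MDM co-culture, by 1.28 ± 0.13 in MiaTAM and 1.22 ± 0.13 in BxTAM.

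The chaperone and quality control genes of the endoplasmic reticulum, which are driven mainly by ATF6 and XBP1, were mostly highest in MDM co-culture, as Ddit3 was. Of 20 tested, 11 were called higher and 3 lower in MiaTAM, 12 and 4 in BxTAM, and 18 and 2 in MDM co-culture than in cells alone. The share called higher was 55%, 60% and 90%, beside 31.4%, 30.0% and 32.0% of all tested genes. Against MDM co-culture 18 were called lower and 1 higher in MiaTAM, and 16 and 1 in BxTAM. The share called lower was 90% and 80%, beside 21.1% and 17.3% of all tested genes. Hspa5, the chaperone BiP, changed by 0.52 ± 0.05 in MiaTAM, 0.81 ± 0.05 in BxTAM and 1.98 ± 0.05 in MDM co-culture against cells alone, and Ero1l, an oxidase that forms disulfide bonds, by 0.60 ± 0.06 in MiaTAM, 0.60 ± 0.06 in BxTAM and 1.52 ± 0.06 in MDM co-culture. In MDM co-culture 16 of the 20 stood above all other libraries, as did 8.83% of all tested genes and 1 of the 46 tested members.

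**Figure D5:**
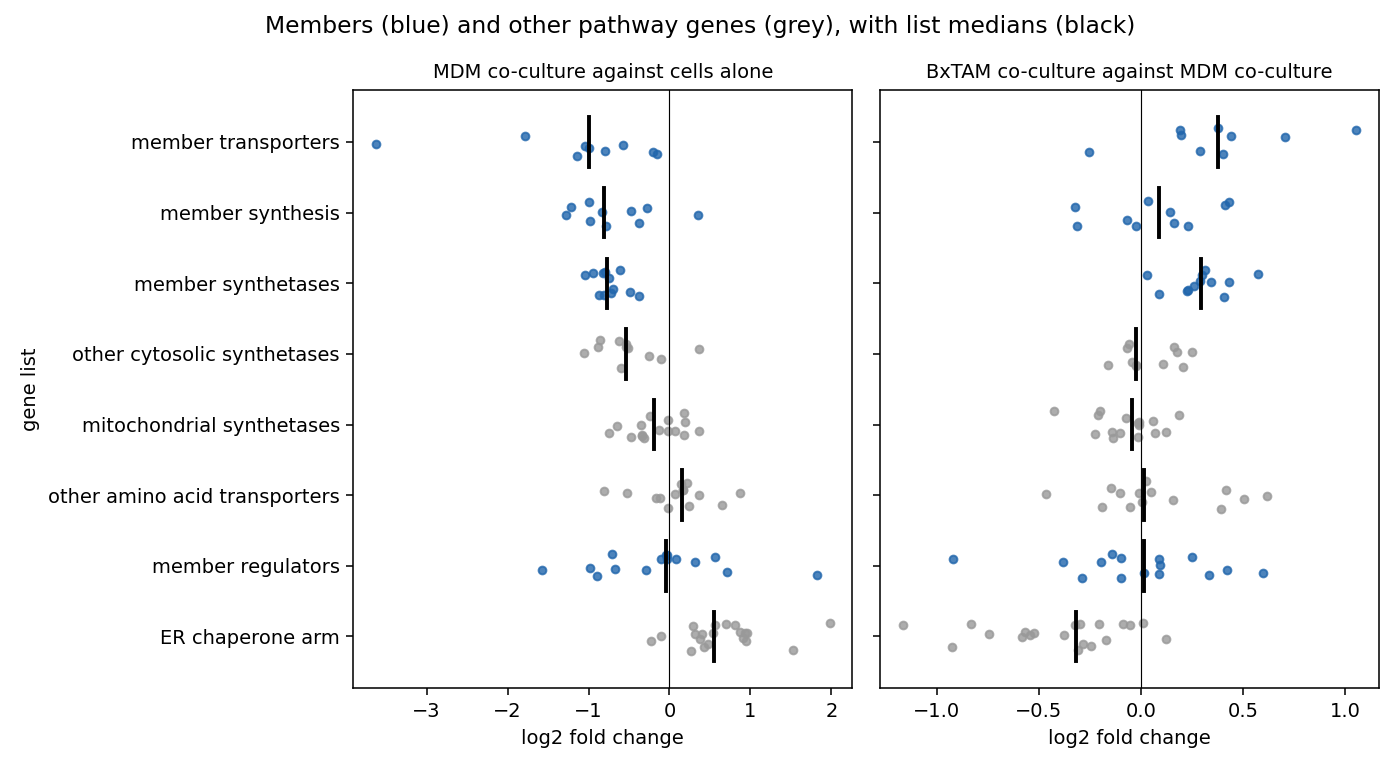
Log2 fold changes (horizontal axes) of the tested genes of each list (points, members in blue and other genes in grey) with the list median (black bar), for MDM co-culture against cells alone (left) and BxTAM against MDM co-culture (right). Member transporters, synthesis genes and synthetases have medians below 0 on the left and above 0 on the right, and the chaperone list of the endoplasmic reticulum the reverse.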

How the data were processed

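Per the labels' protocols, total RNA was column-purified, checked for integrity and made into stranded mRNA libraries. The submitters' processing notes name HISAT2, StringTie 1.3.0, CASAVA and the build Rnor_6.0. The counting tool, annotation release and strand setting were not given in the sources used here. Deposited were whole-number counts per gene, not normalized, per the file headers, and FPKM values that the authors scaled by gene length and library total.

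Counts were filtered with filterByExpr, scaled by TMM and fitted in edgeR 4.0.16 (R 4.3.3) by quasi-likelihood, with all 12 libraries, 4 group means and no block. Benjamini-Hochberg adjustment ran over the 12360 genes tested in each of 6 comparisons, and the standard error is the log2 change over the square root of F. FPKM served to compare levels between genes. The analysis was tested on simulated data. No 2 libraries of the same group held identical counts over the tested genes, and libraries of different groups were not compared in this way. Alternatives used DESeq2 1.42.0 and limma 3.58.1 on log2(FPKM + 1). Promoters came from RefSeq (GRCr8) and genome positions of genes from the table (Rnor_6.0).

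Members, gene lists and the rule for named genes were chosen with earlier results of these data known. Per-library values are given for a fixed set of members and for the 2 called members with the largest change in each role and comparison. From the other lists the rule takes called genes with the smallest p.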

Additional observations from a re-analysis of the deposited data

Results flagged for a closer look

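The effects of the 2 kinds of TAM on a member were compared directly as MiaTAM against BxTAM co-culture, and 21 members passed that test (edgeR, adjusted p under 0.05). Of the 46 tested members 4.35% were called higher and 41.3% lower, beside 11.0% and 13.3% of all tested genes. Among regulators the log2 difference was -0.53 for Ddit3, -0.29 for Cebpg, -0.28 for Atf4, -0.28 for Eif2ak3, -0.28 for Stc2, -0.27 for Atf5, -0.26 for Sesn2, -0.25 for Ddit4, -0.21 for Trib3, -0.20 for Eif2ak4, -0.19 for Ppp1r15a and 0.24 for Cebpb. Among synthetases it was -0.28 for Eprs, -0.21 for Lars, -0.15 for Iars, -0.14 for Nars, -0.14 for Tars and -0.13 for Aars. The remaining ones were the transporter gene Slc1a4 at -0.16 and the synthesis genes Cth at -0.32 and Phgdh at 0.43. The calls of Trib3, Ddit4, Cebpb and Cth were each lost in 10 or more of 19 alternative analyses.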

How the results depend on the processing

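No direction of a called member reversed in any of 19 alternatives (12 that left out 1 library and 7 others). Of 206 calls of members in the 6 comparisons, 28 were lost under at least 1 alternative and 12 further ones gained. Lost most often were the MiaTAM against BxTAM calls of Trib3 (16 of 19), Ddit4 (15), Cebpb (12) and Cth (10), and those of Gpt2 in BxTAM (14) and Sesn2 in MDM co-culture (12) against cells alone. The number of members called higher in MiaTAM than in BxTAM was 1 with the DESeq2 Wald test, with only the groups compared in the fit and with limma on log2(FPKM + 1), against 2 in the main analysis. Leaving out each library in turn gave 1 to 3 for that number and 12 to 19 for the members called lower. In MiaTAM against MDM co-culture it gave 17 to 24 higher and 9 to 11 lower, in BxTAM against MDM co-culture 22 to 25 and 4 to 7, in MiaTAM against cells alone 4 to 5 and 35 to 36, in BxTAM against cells alone 6 to 7 and 33 to 34, and in MDM co-culture against cells alone 5 to 5 and 34 to 36. The causes of these changes were not tested.

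No strong shared shift was seen by replicate number: deviations of same-numbered libraries correlated at -0.13 to 0.09, with 0 of 18 pairs over 0.1. Whether same-numbered libraries were handled together is not given in the labels, and these correlations cannot decide it. With the replicate block 2 members were called higher and 17 lower in MiaTAM than in BxTAM, 23 and 11 in MiaTAM and 24 and 6 in BxTAM than in MDM co-culture, and 5 and 36, 7 and 33, and 5 and 36 in MiaTAM, BxTAM and MDM co-culture than in cells alone. Few counts stood behind Slc7a3 (144 over all libraries), Aldh1l2 (3) and Cbs (1).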
